A study of Mus musculus with 12 samples.

Results

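The lysosome of the tumor-associated macrophage (TAM) was followed through 46 genes, chosen by name from the 55401 genes of each count table. They encode lysosomal membrane proteins, soluble hydrolases and their helpers, subunits of the proton pump V-ATPase, and the transcription factors Tfeb and Tfe3. All 46 were found on 1 row each and all 46 passed the filter on low counts in both comparisons. TAMs were sorted as CD45+ CD11b+ Ly6C- Ly6G- F4/80+ cells from subcutaneous B16-F10 melanoma tumors, B16-F10 being a mouse melanoma line of C57BL/6 origin, and profiled by bulk RNA-seq in 4 groups of 3 samples. WT TAMs came from AMPKfl/fl mice and AMPK-KO TAMs from AMPKfl/flLyz2cre/cre mice, both on day 15 after implantation per the methods, so that both are labelled with the floxed allele and AMPK-KO alone with Cre, which the Lyz2 locus drives in myeloid cells. Of the AMPK catalytic genes, the genotyping covers the floxed AMPKα1 allele, and in the genotype labels Lyz3 and Lyz4 stand in place of Lyz2 for AMPK-KO replicates 2 and 3. Early-stage TAMs, from tumors of 8 days, and late-stage TAMs, from tumors of 15 days, came from mice labelled WT, without a floxed allele in the labels. The methods give female C57BL/6 mice of 5 weeks, and neither source gives how many mice a sample pooled, so that p-values measure the spread between samples that may be technical.

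Lysosomes degrade what a macrophage engulfs or recycles by autophagy. The V-ATPase acidifies their lumen with a membrane-embedded V0 sector, which carries protons, and a cytosolic V1 sector, which hydrolyzes ATP. Acid hydrolases then take apart glycolipids, glycogen, glycosaminoglycans, glycoproteins and proteins. Many of these genes share a promoter element, the CLEAR element, a form of the E-box bound by TFEB and TFE3, and AMPK is a kinase that senses low energy and acts on this family of factors. In macrophages the same compartment handles cholesterol and the debris of dead cells.

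Promoter sequences are shown for the 6 genes that carried the E-box TCACGTG and were lower in AMPK-KO TAMs, and for Acp5, the member with the largest rise there among the 46. The RefSeq windows on GRCm38.p6 run from 250 bases before to 50 after a gene's start, and 40 of the 46 members had one. The stretches of 100 bases are on the transcribed strand, 5′ to 3′, with the matches in capitals. For Lamp1, the major glycoprotein of the lysosomal membrane, the stretch chr8:13159071-13159170 on the plus strand held 4 matches, at positions -62, -45, -28 and -16 from the start. The others had 1 site each, at -49 in Glb1 (chr9:114400982-114401081, plus strand), -141 in Gaa (chr11:119267775-119267874, plus), -50 in Lgmn (chr12:102439090-102439189, minus), -4 in Atp6v0d1 (chr8:105566055-105566154, minus) and -132 in Atp6v1a (chr16:44139338-44139437, minus). Acp5 held the related word CACATGA at -90 (chr9:22130636-22130735, minus). In GENCODE M21 the stretches of Lgmn, Atp6v1a and Acp5 lay within the bounds of those genes but in no exon, those of Gaa and Atp6v0d1 outside any gene, and those of Lamp1 and Glb1 reached 10 and 6 bases into an exon.

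Lamp1: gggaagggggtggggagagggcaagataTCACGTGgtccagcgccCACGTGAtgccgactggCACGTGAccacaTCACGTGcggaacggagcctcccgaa
Glb1: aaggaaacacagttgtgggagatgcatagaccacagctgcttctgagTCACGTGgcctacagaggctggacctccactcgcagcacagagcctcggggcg
Gaa: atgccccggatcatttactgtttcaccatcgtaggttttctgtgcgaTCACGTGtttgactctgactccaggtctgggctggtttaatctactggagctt
Lgmn: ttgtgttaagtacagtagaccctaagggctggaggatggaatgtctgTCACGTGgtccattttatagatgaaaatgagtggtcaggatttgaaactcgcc
Atp6v0d1: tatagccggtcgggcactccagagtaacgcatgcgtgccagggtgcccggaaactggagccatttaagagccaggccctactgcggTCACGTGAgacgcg
Atp6v1a: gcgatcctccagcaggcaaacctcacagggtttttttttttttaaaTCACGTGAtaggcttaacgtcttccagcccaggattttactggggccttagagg
Acp5: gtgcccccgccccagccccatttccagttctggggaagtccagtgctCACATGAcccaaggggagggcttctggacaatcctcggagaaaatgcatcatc

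The word TCACGTG, searched on both strands, was in the windows of 11 of the 40 members (27.5%) and of 1160 of all 27025 genes with a window (4.29%). Every one of those 11 windows with the core CACGTG thus had the longer word, whereas 2187 of all genes (8.09%) had the core. The word TCATGTG, on both strands, was in 7 of the 40 members (17.5%) and in 1165 of all genes (4.31%). A match is a word in a window and not a bound site. The members with TCACGTG were Lamp1, Mcoln1, Glb1, Gla, Arsa, Gaa, Naglu, Sgsh, Lgmn, Atp6v0d1 and Atp6v1a.

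Each library held between 71019494 and 84470374 counts, and levels are given as CPM, counts relative to the library total, scaled by TMM within each table. The floxed gene Prkaa1 fell by 0.60 on the log2 scale in AMPK-KO TAMs (adjusted p = 0.00023, edgeR quasi-likelihood test), from 4959, 4535 and 5165 counts in WT to 3467, 3285 and 3297. Lyz2, the gene that carries Cre, had 671 to 1088 counts in all 6 WT and AMPK-KO libraries and 88212 to 249165 in the early-stage and late-stage libraries, although the labels give Lyz2cre/cre to the AMPK-KO samples alone. WT and AMPK-KO libraries were thus not set apart by Lyz2 as their labels are, whether the WT mice carried Cre was not tested, and the comparison is read by its labels and by the fall of Prkaa1. Over Kdm5d, Uty, Ddx3y and Eif2s3y, genes of the Y chromosome, the summed counts were 3435 to 4035 in early-stage and 0 to 4 in late-stage libraries, so that sex and stage cannot be told apart, and 9229 to 12183 in WT and AMPK-KO libraries. Female mice, which the methods give, lack these genes. The counts in early-stage, WT and AMPK-KO libraries thus do not match the methods, and their source was not tested. Macrophage markers were present in every library, at summed levels of 9718 to 13955 CPM over 10 genes. In bulk samples fewer cells of a type and less RNA per cell cannot be told apart.

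For AMPK-KO against WT, the question was how loss of AMPK alters TAMs. The lysosomal genes moved in both directions and by little. Of the 46 members, 17 were lower and 8 were higher in AMPK-KO TAMs at an adjusted p under 0.05, where 9.78% of all 17532 genes tested were lower and 11.3% higher. The log2 fold changes lay between -0.72 and 0.62, with a median of -0.11 where all genes tested had -0.0037. In 31 of the 46 members the 3 AMPK-KO libraries did not overlap the 3 WT libraries, against 37.2% of all genes tested. Without AMPK-KO replicate 2, 11 members were lower, and among all genes 1085 were lower in place of 1715. At an unadjusted p under 0.05 (edgeR) that fit gave 18 members lower in place of 21. The summed level of the 46 members was 25565 to 26578 CPM in AMPK-KO and 26021 to 26848 CPM in WT, and these ranges overlapped. Of these sums, Psap alone, which rose, gave 9255 to 10036 CPM in AMPK-KO and 8338 to 8728 CPM in WT. The overlap therefore does not describe the other members.

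**Figure D1:**
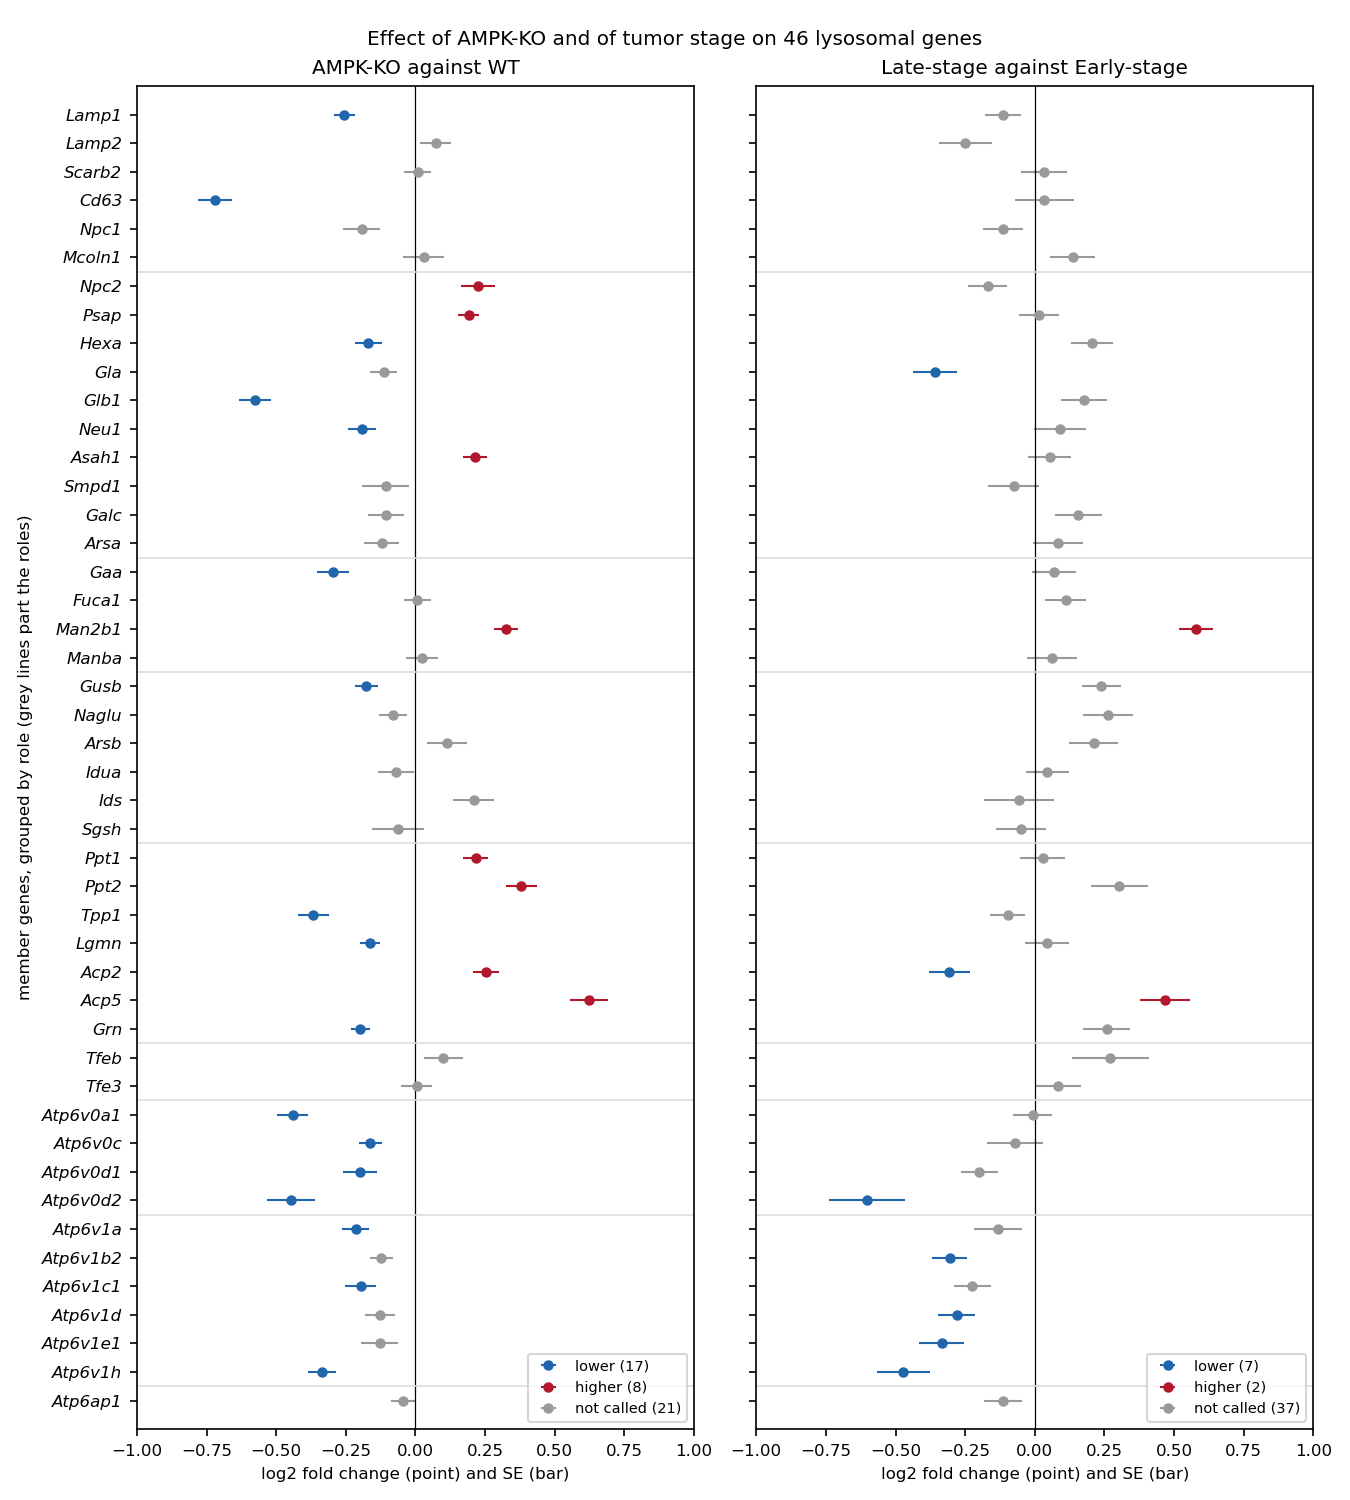
Log2 fold change (x axis, points) with its SE (bars) of the 46 member genes (y axis, by role) for AMPK-KO against WT on the left and late-stage against early-stage on the right, 3 libraries a group, colored by the call at an adjusted p under 0.05. On the left 17 are lower and 8 higher, and on the right 7 are lower and 2 higher; all 11 V-ATPase genes at the bottom lie left of 0 in both panels.

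Among the 6 lysosomal membrane proteins, 2 fell in AMPK-KO TAMs and 0 rose by edgeR. For this and the following counts by role, the shares over all genes tested were 9.78% lower and 11.3% higher. At an unadjusted p under 0.05, and with DESeq2, 3 fell and 0 rose. Cd63, a tetraspanin of late endosomes and exosomes, had 472, 530.1 and 487 CPM in WT and 281, 302 and 320.2 CPM in AMPK-KO libraries. The highest AMPK-KO library was thus well below the lowest WT library. Its log2 fold change was -0.72 ± 0.06 (SE; adjusted p = 2.0e-05, edgeR), the largest fall of any member. Lamp1 had 1468, 1509 and 1483 CPM in WT and 1260.1, 1219.7 and 1257 CPM in AMPK-KO libraries, again without overlap (log2 fold change -0.26 ± 0.04, adjusted p = 0.00068, edgeR). Its relative Lamp2, needed for fusion of lysosomes with autophagosomes, did not pass the test at 564, 557 and 591 CPM in WT against 634, 614 and 553 CPM in AMPK-KO (adjusted p = 0.41), and its groups overlapped. Mcoln1, the lysosomal calcium channel, was at 61.9 ± 3.7 CPM in WT and 63.2 ± 5.2 CPM in AMPK-KO (SD, n = 3; adjusted p = 0.83). Scarb2 and the cholesterol exporter Npc1 did not pass the test either (adjusted p = 0.94 and 0.065).

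The 10 genes of sphingolipid, ganglioside and cholesterol handling split into 3 that fell and 3 that rose. Glb1, the β-galactosidase that cleaves GM1 ganglioside, had 89.0, 90.1 and 89.9 CPM in WT and 58.2, 64.1 and 58.1 CPM in AMPK-KO libraries. The WT libraries lay within about 1 CPM of each other and far above the AMPK-KO libraries (log2 fold change -0.58 ± 0.06, adjusted p = 5.9e-05, edgeR). The sialidase Neu1 (-0.19 ± 0.05) and Hexa, the α subunit of β-hexosaminidase (-0.17 ± 0.05), fell less, with adjusted p of 0.023 and 0.037.

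Of the 3 that rose in this class, Psap encodes the precursor of the saposins, which present sphingolipids to their hydrolases. It had 8467, 8728 and 8338 CPM in WT and 9255, 9854 and 10036 CPM in AMPK-KO libraries (log2 fold change 0.19 ± 0.04, adjusted p = 0.0045, edgeR). Every AMPK-KO library was above every WT library. Npc2, which binds cholesterol in the lumen, rose from 805, 931 and 858 CPM to 975, 977 and 1077 CPM (0.22 ± 0.06, adjusted p = 0.024). The acid ceramidase Asah1 rose from 294, 294 and 303 CPM to 353, 343 and 337 CPM (0.21 ± 0.04, adjusted p = 0.0055). Gla, Smpd1, Galc and Arsa, which act on globosides, sphingomyelin, galactocerebroside and sulfatide, did not pass the test, with log2 fold changes from -0.12 to -0.11.

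Among the 4 glycosidases of glycogen and glycoproteins, the α-mannosidase Man2b1 rose and Gaa, the acid α-glucosidase that breaks down glycogen, fell. Man2b1 had 536, 493 and 514 CPM in WT and 649, 642 and 641 CPM in AMPK-KO libraries (0.32 ± 0.04, adjusted p = 0.00048, edgeR). Gaa had 146, 148 and 138 CPM in WT and 121, 121 and 109.7 CPM in AMPK-KO libraries (-0.30 ± 0.06, adjusted p = 0.0044). Neither gene's groups overlapped. Fuca1 and Manba stood at log2 fold changes of 0.01 and 0.02 and were not called.

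Of the 6 enzymes of glycosaminoglycan breakdown only the β-glucuronidase Gusb passed the edgeR test, and it was lower. It had 352, 365 and 353 CPM in WT and 315, 317 and 315 CPM in AMPK-KO libraries (-0.18 ± 0.04, adjusted p = 0.013, edgeR), and lost the call without AMPK-KO replicate 2. Naglu, Arsb, Idua, Ids and Sgsh had log2 fold changes from -0.08 to 0.21. Ids, at 0.21, was higher without overlap at an unadjusted p of 0.017 (edgeR), and DESeq2 called 1 of the 6 higher and 1 lower.

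All 7 proteases, thioesterases, phosphatases and progranulin passed the test, 3 lower and 4 higher. Acp5, the tartrate-resistant acid phosphatase, had 79.8, 94.7 and 85.6 CPM in WT and 132, 129.6 and 139 CPM in AMPK-KO libraries (0.62 ± 0.07, adjusted p = 1.0e-04, edgeR). The palmitoyl thioesterases rose as well, Ppt2 from 80.7, 74.5 and 72.8 CPM to 98.6, 98.7 and 99.3 CPM (0.38 ± 0.06, adjusted p = 0.0008) and Ppt1 from 223, 226 and 230.1 CPM to 258, 271 and 259 CPM (0.22 ± 0.04, adjusted p = 0.0064). Acp2, the other acid phosphatase of the list, rose from 217, 221 and 221 CPM to 269, 266 and 251 CPM (0.25 ± 0.05, adjusted p = 0.0034).

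In the opposite direction, the tripeptidyl peptidase Tpp1 fell from 336, 300.1 and 320.2 CPM to 258, 247 and 236 CPM (-0.37 ± 0.06, adjusted p = 0.00094, edgeR). The lysosomal growth factor progranulin, Grn, fell from 3299, 3315 and 3236 CPM to 2814, 2843 and 2932 CPM (-0.20 ± 0.03, adjusted p = 0.0021). The asparaginyl endopeptidase Lgmn, which processes other lysosomal proteases, fell from 3670, 3853 and 3672 CPM to 3243, 3378 and 3365 CPM (-0.16 ± 0.04, adjusted p = 0.0085). In none of these 7 genes did the groups overlap, where 37.2% of all genes tested had no overlap.

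**Figure D2:**
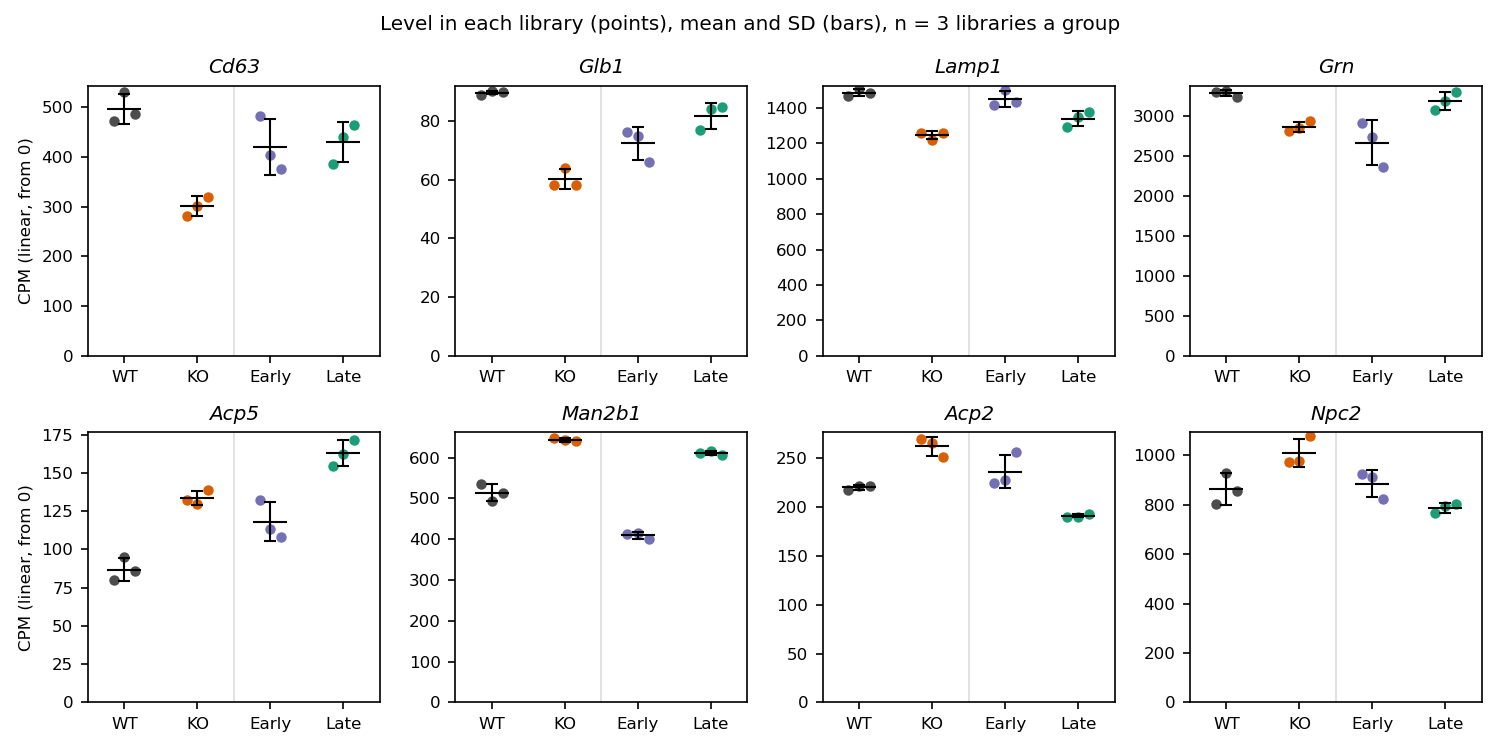
Level in CPM (y axis, linear from 0) of 8 members in each library (points) of WT, AMPK-KO (KO), early-stage (Early) and late-stage (Late) TAMs, with the mean and SD of 3 libraries (bars). Cd63, Glb1, Lamp1 and Grn are lower and Acp5, Man2b1, Acp2 and Npc2 higher in AMPK-KO than in WT; Man2b1 and Acp5 are higher and Acp2 is lower in late-stage than in early-stage TAMs. Levels left and right of the grey line were scaled in separate tables.

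Neither transcription factor passed the test in AMPK-KO TAMs, by edgeR, DESeq2 or at an unadjusted p under 0.05. Tfeb had 35.1, 39.0 and 39.0 CPM in WT and 40.2, 38.6 and 42.4 CPM in AMPK-KO libraries (log2 fold change 0.10 ± 0.07, adjusted p = 0.37, edgeR). Tfe3 had 107.4, 117.5 and 106.8 CPM in WT and 114.4, 107.2 and 111.1 CPM in AMPK-KO libraries (0.0039 ± 0.06, adjusted p = 0.97), with a value of -0.010 under upper-quartile scaling. Both genes overlapped between the groups. Transcript levels do not report where these proteins are in the cell or whether they are phosphorylated.

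The 11 V-ATPase members all had a negative log2 fold change in AMPK-KO TAMs, and 7 were called lower, where 9.78% of all genes tested were. Their median log2 fold change was -0.20. All 4 V0 members fell. Atp6v0a1, the large V0 subunit, had 235, 212 and 211 CPM in WT and 166, 161 and 158 CPM in AMPK-KO libraries (-0.44 ± 0.06, adjusted p = 0.00028, edgeR). Atp6v0d2, a V0 subunit of osteoclasts and macrophages, was low and fell from 21.6, 22.6 and 23.6 CPM to 15.8, 17.7 and 16.3 CPM (-0.45 ± 0.09, adjusted p = 0.0042). The proton-carrying ring subunit Atp6v0c had 778, 813 and 804 CPM in WT and 698, 703 and 739.9 CPM in AMPK-KO libraries (-0.16 ± 0.04, adjusted p = 0.021). Atp6v0d1, the widely expressed paralog of Atp6v0d2, had 192, 221 and 210.2 CPM in WT against 184, 172 and 187 CPM in AMPK-KO libraries (-0.20 ± 0.06, adjusted p = 0.041).

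Of the 6 V1 members, 3 fell. The regulatory subunit Atp6v1h, which couples ATP hydrolysis to proton transport, had 128, 138 and 133 CPM in WT and 104.6, 105.2 and 106.5 CPM in AMPK-KO libraries (-0.33 ± 0.05, adjusted p = 0.00089, edgeR). The catalytic subunit Atp6v1a fell by 0.21 on the log2 scale (adjusted p = 0.011) and the stator subunit Atp6v1c1 by 0.20 (adjusted p = 0.027). Atp6v1b2, Atp6v1d and Atp6v1e1 had values of -0.12, -0.13 and -0.13 and were not called, nor was the accessory protein Atp6ap1 at -0.04. The groups did not overlap in 9 of the 11, against 37.2% of all genes tested.

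The summed level of the 11 genes was 2896, 2980 and 2918 CPM in WT and 2596, 2572 and 2609 CPM in AMPK-KO libraries. Each of the 3 AMPK-KO sums was thus below each WT sum. Without WT replicate 2, WT replicate 3, AMPK-KO replicate 1 or AMPK-KO replicate 2, 4 of the 11 were called lower in each case. At an unadjusted p under 0.05 (edgeR) these fits gave 7, 8, 8 and 7 lower, against 9 in the main fit. All 11 values stayed negative in every alternative run. Of the 14 other V-ATPase subunits listed, 9 passed the filter, and 6 of the 9 values were negative. Atp6v0a2 rose (0.40 ± 0.05, adjusted p = 0.00028, edgeR) and Atp6v1g1 fell (-0.40 ± 0.08, adjusted p = 0.0041). Like Atp6v0a1, Atp6v0a2 and Tcirg1 are isoforms of the large V0 subunit. Atp6v0a2 was at 81.8 CPM in WT and 107.6 CPM in AMPK-KO. Tcirg1, at 461 and 506 CPM, was higher without overlap and not called (0.13 ± 0.04, adjusted p = 0.0504, edgeR).

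**Figure D3:**
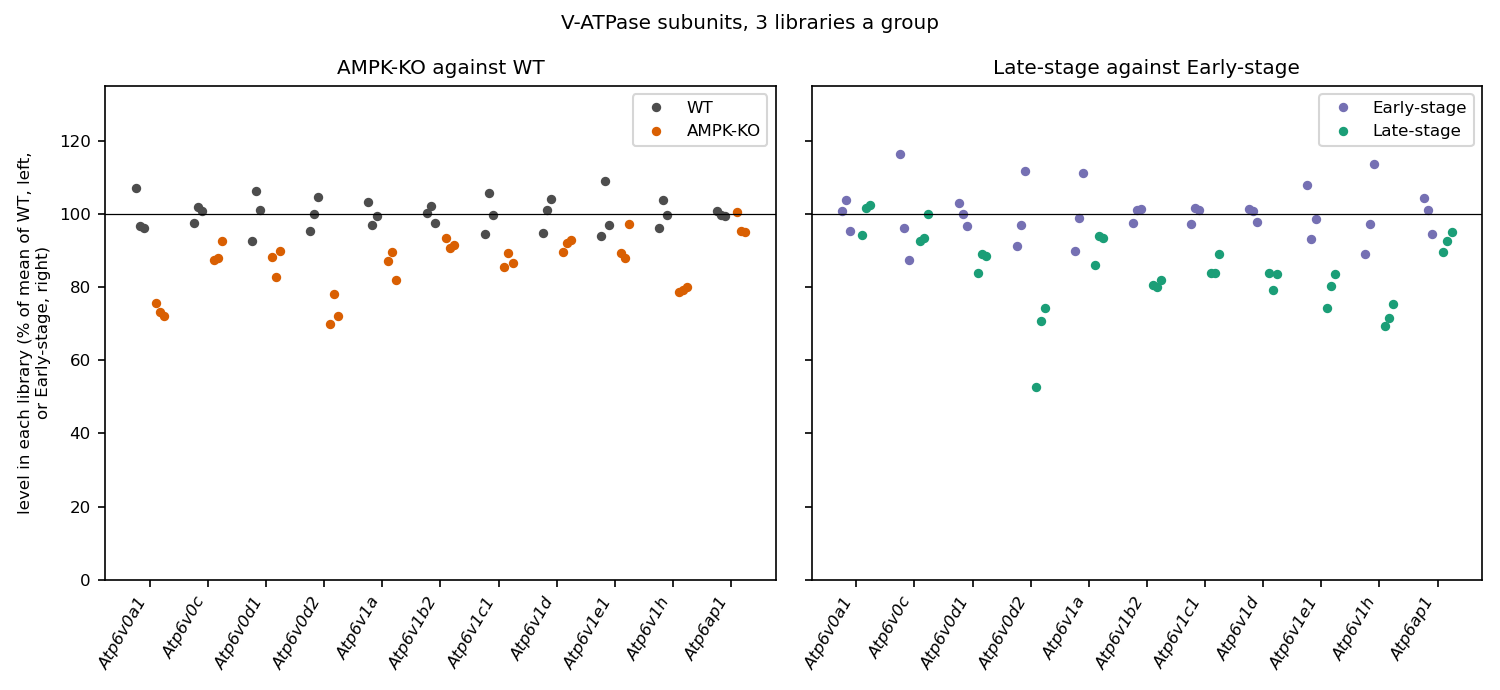
Level of the 11 V-ATPase genes (x axis) in each library as a percent of the mean of WT (left) or early-stage TAMs (right), on a linear y axis from 0; points are single libraries, 3 a group. The AMPK-KO libraries lie below the WT libraries without overlap for 9 genes, and the late-stage libraries below the early-stage libraries for 7. Over all genes tested, 37.2% and 31.2% did not overlap.

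Transcripts of the tumor cells moved in the same direction as the V-ATPase genes and Cd63. All 8 B16 melanoma markers, pigment genes such as Tyrp1, Dct and Pmel, were present in every group, and 7 fell in AMPK-KO TAMs, with a summed level of 960 to 965 CPM in WT and 642 to 674 CPM in AMPK-KO libraries. Their part in the results was not tested. Macrophage markers gave 2 higher (Itgam and Csf1r) and 1 lower (Cd68) of 10, and T cell and NK cell markers 6 of 8 and 7 of 7 higher, at summed levels of 96.0 to 116 CPM and 33.3 to 37.2 CPM in WT against 182 to 190 CPM and 81.7 to 84.9 CPM in AMPK-KO. B cell markers gave 2 higher and 4 lower of 6, neutrophil markers 4 higher of 6, dendritic cell markers 6 higher and 1 lower of 8, and fibroblast and endothelial markers 5 higher and 1 lower of 7. None of these lists was used to correct a value.

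The other lysosomal genes moved both ways too. Of 23 other hydrolases and activators, 5 rose and 7 fell in AMPK-KO TAMs. Naaa, an amidase of fatty acid ethanolamides, rose by 0.82 ± 0.05 and the ganglioside activator Gm2a by 0.50 ± 0.04 on the log2 scale, while the hyaluronidases Hyal1 and Hyal2 fell by 0.92 ± 0.09 and 0.83 ± 0.10 and the acid lipase Lipa by 0.38 ± 0.05 (adjusted p from 1.0e-06 to 0.00032, edgeR). Of 11 cathepsins, 3 rose, namely Ctsh (0.39 ± 0.05), Ctss (0.44 ± 0.06) and Ctsc (0.22 ± 0.03), and 4 fell, among them Ctsd (-0.82 ± 0.04), Ctsb (-0.39 ± 0.03) and Ctsl (-0.53 ± 0.05).

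Of the 22 other membrane proteins and transporters tested, 7 rose and 5 fell. Slc15a3, a peptide transporter, Sidt2 and the chloride exchanger Clcn7 rose (0.36 ± 0.04, 0.37 ± 0.05 and 0.33 ± 0.05), while the channel Mcoln2 (-1.20 ± 0.11), the glycoprotein Gpnmb (-0.78 ± 0.04), which melanoma cells express as well, and the macrophage sialomucin Cd68 (-0.55 ± 0.04) fell. Of 13 genes that sort enzymes to the lysosome, the mannose 6-phosphate receptor M6pr rose (0.21 ± 0.04) and Nagpa, Sort1 and Gga2 fell (-0.32 ± 0.05, -0.37 ± 0.09 and -0.19 ± 0.06). Of 12 genes of the MiT/TFE family and its regulators, 0 rose and 5 fell by edgeR, with 2 higher at an unadjusted p under 0.05 and 1 with DESeq2. Those that fell include Tfec (-0.58 ± 0.09), a macrophage member of the family, the Rag GTPase Rraga (-0.39 ± 0.05) and the folliculin partner Fnip2 (-0.32 ± 0.06).

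The promoter words can be set beside these calls as counts. Of the 11 members with TCACGTG, 6 were lower and 0 higher in AMPK-KO TAMs, 10 had a negative log2 fold change, and their median was -0.165. None of the 11 was higher with DESeq2 or at an unadjusted p under 0.05 either. Of the 29 members whose windows lacked it, 8 were lower and 7 higher, with a median of 0.0040. Among all genes tested, 14.2% of the 770 with the word and 10.7% of the 10959 without it were lower, and 10.8% and 12.8% were higher. In late-stage against early-stage TAMs, 1 of the 11 was lower and 0 higher by edgeR, with 1 higher at an unadjusted p under 0.05 and 0 with DESeq2, which called 2 lower. Their median was 0.0424. Of the 29 without the word, 3 were lower and 2 higher. Among all genes tested, 4.53% of the 773 with the word and 5.53% of the 11022 without it were lower, and 5.56% and 4.78% were higher. For the other word, TCATGTG, 3 of the 7 members with it were lower and 2 higher in AMPK-KO TAMs. Of the 33 members without it, 11 were lower and 5 higher. Among all genes tested, 16.7% of the 348 with TCATGTG were lower and 16.7% higher, and of the 11381 without it 10.7% were lower and 12.6% higher. In late-stage TAMs 1 of the 7 was lower and 1 higher, and of the 33 without it 3 were lower and 1 higher. There, 8.09% of the 346 genes tested with the word were lower and 5.49% higher, and of the 11449 without it 5.39% and 4.81%. These counts are a description, and the 6 members without a window (Npc1, Asah1, Atp6v0d2, Atp6v1b2, Atp6v1c1 and Atp6v1h) are in neither class for either word.

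For late-stage against early-stage, the question was how TAMs change as the tumor grows. Fewer of the 46 members moved, and by edgeR 5 of the 9 that did were V-ATPase subunits, against 7 of the 14 that DESeq2 called. In late-stage TAMs 7 were lower and 2 higher, where 4.88% of all 17630 genes tested were lower and 4.31% higher. The log2 fold changes lay between -0.60 and 0.58, with a median of 0.030 where all genes tested had 0.0027, and in 23 members the groups did not overlap, against 31.2% of all genes. The counts at an adjusted p changed with the libraries in the fit. No member was lower without early-stage replicate 2, late-stage replicate 1 or late-stage replicate 2, and 1 was lower without late-stage replicate 3. At an unadjusted p under 0.05 (edgeR) these fits gave 10, 8, 9 and 10 members lower, against 11 in the main fit. Among all genes 379, 471, 369 and 398 were lower at an adjusted p under 0.05 in place of 860. The number higher was 8 without early-stage replicate 1, and 1 without early-stage replicate 2, late-stage replicate 2 or late-stage replicate 3. The median was -0.010 without early-stage replicate 3 and -0.014 without late-stage replicate 3.

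Man2b1 was the member with the largest rise among the 46 and the only one of the 9 whose call held in all 13 alternatives. It had 414, 416 and 399.9 CPM in early-stage and 612, 617 and 608 CPM in late-stage libraries (log2 fold change 0.58 ± 0.06, adjusted p = 0.00048, edgeR), and the groups were far apart. Acp5 rose from 132, 113 and 108 CPM to 155, 162 and 172 CPM (0.47 ± 0.09, adjusted p = 0.011). The lowest late-stage library was above the highest early-stage library, and the call was lost when early-stage replicate 2, late-stage replicate 2 or late-stage replicate 3 was left out.

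Outside the V-ATPase, Gla and Acp2 fell. Gla, the α-galactosidase that clears globotriaosylceramide, had 151, 148 and 173 CPM in early-stage and 122, 121 and 126 CPM in late-stage libraries (-0.36 ± 0.08, adjusted p = 0.022, edgeR). Acp2 had 225, 228 and 256 CPM in early-stage and 189.8, 190.0 and 193 CPM in late-stage libraries (-0.31 ± 0.07, adjusted p = 0.029). Both were without overlap. The call was lost in 4 of 13 alternatives for Gla and in 6 for Acp2, for both among them the fit without early-stage replicate 2.

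Of the 6 membrane proteins and the 6 glycosaminoglycan enzymes 0 passed the edgeR test. At an unadjusted p under 0.05, 1 membrane protein was lower and 3 glycosaminoglycan enzymes were higher, and DESeq2 called 0 and 1. Lamp1 had 1414, 1501 and 1435 CPM in early-stage and 1292, 1350 and 1376 CPM in late-stage libraries (-0.11 ± 0.06, adjusted p = 0.31, edgeR). Lamp2 was lower in each late-stage library (528, 541 and 566 CPM) than in each early-stage library (570.2, 631 and 743 CPM), at an adjusted p of 0.14. Cd63 overlapped at 483, 403 and 375 CPM against 386, 441 and 464 CPM (0.03 ± 0.11, adjusted p = 0.88). Mcoln1 was at 46.1 ± 2.5 and 50.6 ± 2.6 CPM (SD, n = 3; adjusted p = 0.35). Grn was higher in each late-stage library (3078, 3191 and 3296 CPM) than in each early-stage library (2908, 2736 and 2357 CPM) without passing the test (0.26 ± 0.08, adjusted p = 0.087). Early-stage replicate 3 was the lowest of the 6 libraries for Grn. Tfeb (0.27 ± 0.14, adjusted p = 0.26) and Tfe3 (0.08 ± 0.08, adjusted p = 0.58) overlapped between the stages.

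In the V-ATPase, 5 of the 11 members fell from early-stage to late-stage TAMs, where 4.88% of all genes tested did. Atp6v0d2 fell from 40.3, 42.9 and 49.4 CPM to 23.3, 31.3 and 32.8 CPM (-0.60 ± 0.14, adjusted p = 0.025, edgeR), with late-stage replicate 1 the lowest. Atp6v1h fell from 133, 145 and 169 CPM to 103, 106.5 and 112 CPM (-0.47 ± 0.09, adjusted p = 0.014). In both genes the stages did not overlap.

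The other 3 were, like Atp6v1h, V1 subunits. The nucleotide-binding subunit Atp6v1b2 had 449.8, 466 and 468 CPM in early-stage and 372, 369 and 378 CPM in late-stage libraries (-0.31 ± 0.06, adjusted p = 0.015, edgeR). The stalk subunits Atp6v1e1 (-0.33 ± 0.08, adjusted p = 0.032) and Atp6v1d (-0.28 ± 0.07, adjusted p = 0.0301) fell too. Of the V0 members other than Atp6v0d2, Atp6v0a1, Atp6v0c and Atp6v0d1 had log2 fold changes of -0.0075, -0.07 and -0.20 and were not called.

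All 11 values were negative, with a median of -0.22 and no overlap in 7, where 31.2% of all genes tested had no overlap. Under scaling by library totals alone 10 were negative, and 9 without early-stage replicate 1, while 10 were negative without early-stage replicate 2 or late-stage replicate 1. No V-ATPase member was called lower without early-stage replicate 2, late-stage replicate 1 or late-stage replicate 2, and 1 was without late-stage replicate 3. At an unadjusted p under 0.05 (edgeR) these fits gave 7, 6, 7 and 7 lower, against 7 in the main fit. The summed V-ATPase level was 3142, 3036 and 3015 CPM in early-stage and 2617, 2706 and 2800 CPM in late-stage libraries. Of the 9 other V-ATPase subunits tested, only Atp6v1g1 passed the test, and it fell (-0.40 ± 0.11, adjusted p = 0.043).

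Melanoma markers fell alongside. Of the 8, 6 were lower in late-stage TAMs, and their summed level was 1628, 1619 and 1750 CPM in early-stage and 731, 1161 and 1187 CPM in late-stage libraries. Late-stage replicate 1 was the lowest both for this sum and for the V-ATPase sum. Among the early-stage libraries, replicate 3 was the highest for this sum and the lowest for the V-ATPase sum. The part of tumor cell transcripts in the V-ATPase values was not tested. T cell markers were higher for 4 of 8, B cell markers for 4 of 6, dendritic cell markers for 2 of 8 and macrophage markers for 1 of 10 (C1qa), while NK cell markers were lower for 5 of 7, neutrophil markers for 2 of 5, and fibroblast and endothelial markers for 3 of 7.

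In the other lysosomal lists, 3 of 23 hydrolases and activators rose in late-stage TAMs and 5 fell. Hgsnat, the acetyltransferase of heparan sulfate breakdown, rose from 146 ± 4.5 to 340.1 ± 14 CPM (SD, n = 3; log2 fold change 1.22 ± 0.07), and the phospholipase Pla2g15 rose by 0.41 ± 0.07 on the log2 scale. Hyal1, Smpdl3a and Hyal2 fell (-0.58 ± 0.12, -0.31 ± 0.07 and -0.39 ± 0.09). Of the cathepsins, Ctsf rose (1.08 ± 0.18) and Ctsl, Ctsk and Ctss fell (-0.81 ± 0.09, -1.03 ± 0.15 and -0.26 ± 0.06).

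Of the 23 other membrane proteins tested, Abca2 rose (0.45 ± 0.08) and Mcoln2 and Gpnmb fell (-1.26 ± 0.13 and -0.52 ± 0.11). Of the 13 sorting genes 0 passed the edgeR test in either direction and 0 with DESeq2, and 2 were higher and 1 lower at an unadjusted p under 0.05. In the MiT/TFE list Mitf, which melanoma cells also express, fell from 124 ± 16 to 68.8 ± 3.0 CPM (-0.86 ± 0.10, adjusted p = 0.00074, edgeR), and Tfec (-0.71 ± 0.10) and Fnip1 (-0.34 ± 0.09) fell as well, while 0 of the 12 rose by edgeR, by DESeq2 or at an unadjusted p under 0.05.

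Whether the genotype and the stage acted differently on a gene was tested by the difference of the log2 fold changes, AMPK-KO against WT minus late-stage against early-stage, over all 12 libraries. It was called for 11 of the 46 members, where 12.6% of all 19073 genes tested were called in either direction. The comparisons come from separate tables with no shared library, and an effect of the experiment and an effect of genotype or stage cannot be told apart here. Of the 11, 8 held in all 19 alternatives, namely Glb1, Acp2, Cd63, Gusb, Grn, Atp6v0a1, Npc2 and Hexa.

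Glb1 had the smallest adjusted p among the 46, with a log2 fold change of -0.58 for AMPK-KO and 0.18 for late stage (difference -0.74 ± 0.10, adjusted p = 1.2e-04, edgeR). Cd63 was at -0.72 and 0.03 (difference -0.75 ± 0.13, adjusted p = 0.0012). Acp2 went the other way, at 0.25 and -0.31 (difference 0.57 ± 0.08, adjusted p = 0.00029). It was the only member called in both comparisons with opposite signs.

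Grn, Gusb and Hexa were lower in AMPK-KO libraries and higher, without passing the test, in late-stage libraries, with differences of -0.45 ± 0.09, -0.41 ± 0.08 and -0.37 ± 0.09. Npc2 was at 0.22 and -0.17 (difference 0.40 ± 0.09). Atp6v0a1 was the only V-ATPase member called, at -0.44 and -0.0075 (difference -0.42 ± 0.09). Gaa (-0.35 ± 0.10), Naglu (-0.33 ± 0.10) and Man2b1 (-0.24 ± 0.07) lost the call in 6, 14 and 10 alternatives. Atp6v0d2 and Atp6v1h, lower in both comparisons, and Acp5, higher in both, were not called, with differences of 0.17 ± 0.17, 0.15 ± 0.11 and 0.17 ± 0.11 (SE).

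**Figure D4:**
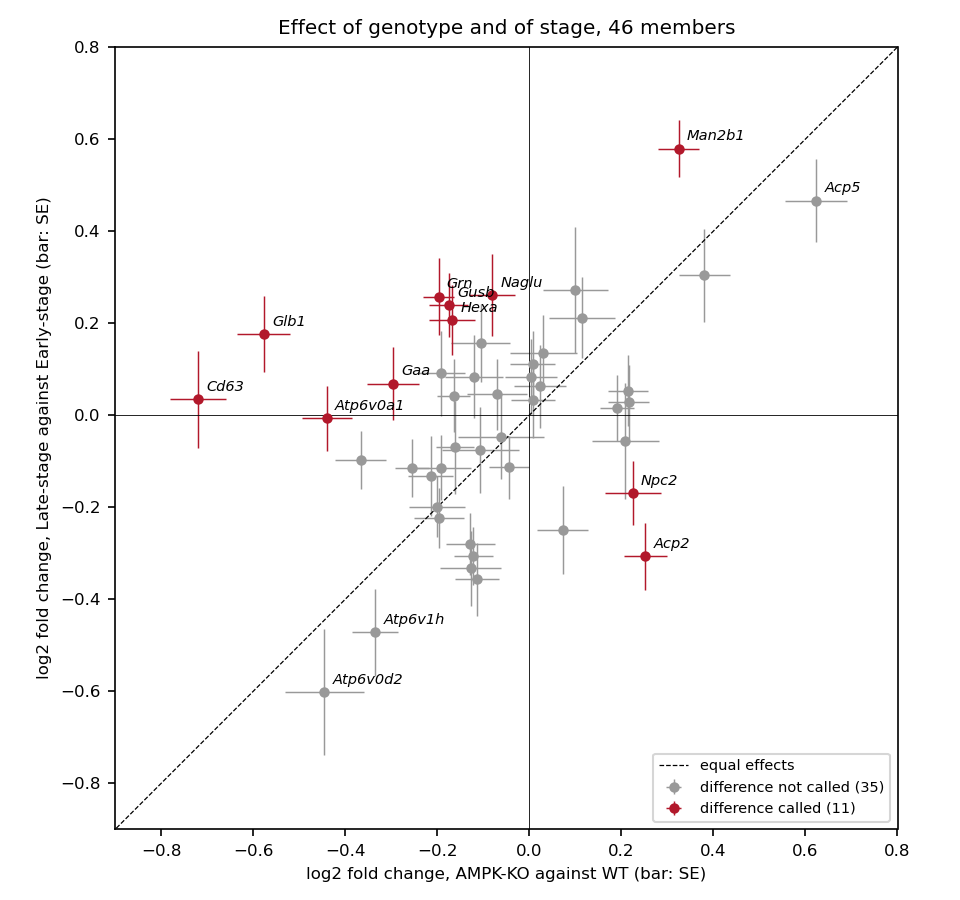
Log2 fold change of the 46 members for AMPK-KO against WT (x axis) and for late-stage against early-stage (y axis), with the SE of each (bars); the dashed line marks equal effects. The 11 members in red, Glb1 and Cd63 at the left and Acp2 at the lower right among them, had effects that differed at an adjusted p under 0.05.

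Between genes, levels were compared per kilobase of exon for the 43 members whose version matched GENCODE M21. The length was the union of a gene's annotated exons, which can be longer than a single transcript. In WT TAMs Psap was the highest at 3102 CPM per kb, followed by Lgmn at 1606 and Lamp1 at 556. The lowest were Galc at 3.34, Tfeb at 6.65 and Arsb at 6.96 CPM per kb. The place of Galc rests on its union length of 14879 bases. Before division by length it was at 49.8 CPM, above Tfeb at 37.7 and Arsb at 42.0 CPM. Among V-ATPase genes, the ring subunit Atp6v0c was the highest at 236 CPM per kb and Atp6v0d2 the lowest at 8.32, below its paralog Atp6v0d1 at 116. In AMPK-KO TAMs Psap stood at 3540 and Lamp1 at 466 CPM per kb. The members without a matched version were Gla, Acp2 and Grn.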

How the data were processed

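RNA of 12 TAM samples (4 groups, 3 replicates) was sequenced on an Illumina NovaSeq. The authors mapped reads with HISAT2 and deposited raw counts per gene from featureCounts, 1 table per comparison; tool versions, strand and the handling of reads shared by paralogs are not given in the sources used here. The methods write GRCh38 and the labels mm10, and positions follow GENCODE M21 (GRCm38). Each table was filtered with filterByExpr, scaled by TMM and fitted in edgeR 4.0.16 (R 4.3.3; glmQLFit and glmQLFTest, a quasi-likelihood test), without covariates, with Benjamini-Hochberg adjustment over all genes tested; a gene was called where the adjusted p was under 0.05, whatever its fold change. A fit of all 12 libraries tested the difference between the effects. The scripts were tested on simulated data. The text names every member called, the fixed members Lamp1, Lamp2, Tfeb, Tfe3, Mcoln1, Atp6v0d2, Acp5 and Grn, and of each other list the 3 called genes of smallest adjusted p per direction; other members are named with their values seen. A gene that this rule covers is not reported here. The members and lists were chosen with earlier results of these data known. Alternatives were RLE, upper-quartile and total-count scaling, DESeq2 1.42.0, a filter of at least 10 counts in every sample, or of 1 count in all, a replicate block, each library left out, and an absolute log2 fold change above 1. V-ATPase counts under these were added after seeing the data. Plots used matplotlib 3.10.9 and pandas 2.3.3 (Python 3.11.15). Cln7 of the membrane list was not matched by symbol.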

Additional observations from a re-analysis of the deposited data

How the results depend on the processing

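The direction and call of 18 of the 25 members called in AMPK-KO against WT held in all 13 alternatives; of the others, Atp6v0d1 lost the call in 6, Atp6v1c1, Hexa and Npc2 in 5 each, Atp6v0c in 4, Neu1 in 3 and Gusb in 1. The number lower was 17 and ranged from 11 to 18 with a library left out, and the median from -0.130 to -0.0863. The number of V-ATPase members lower (7) ranged from 4 to 8. An absolute log2 fold change above 1 left 0 members in either direction of both comparisons and in the difference. In late-stage against early-stage TAMs, the number higher (2) was 5 with DESeq2 and 1 to 8 with a library left out, and the number lower (7) was 4 without a filter and 0 to 9 with a library left out. The V-ATPase members lower (5) were 3 without a filter and 0 to 6 with a library left out, and the median of the members (0.030) ranged from -0.0136 to 0.0465 with a library left out and was 0.0554 under library totals alone. Mcoln1 in AMPK-KO against WT ranged from -0.0359 to 0.0806 with a library left out, with -0.00145 without WT replicate 2, and Tfe3 from -0.0253 to 0.0511, with -0.0102 under upper-quartile factors and -0.00379 without a filter. The cause was not tested.

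Same-numbered replicates correlated at -0.004 to 0.042 (AMPK-KO and WT) and 0.013 to 0.026 (early-stage and late-stage), so the numbers did not pair the samples. With the replicate number as a block, 9 members were higher and 18 lower in AMPK-KO, 2 higher and 4 lower (3 V-ATPase members) in late-stage TAMs, and 9 differed between the effects. The common biological coefficient of variation was 0.159 in the AMPK-KO and WT table and 0.201 in the early-stage and late-stage table, with 3 libraries a group. The SE given for a gene comes from its own quasi-likelihood test.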
